A study of Mus musculus with 23 samples.

Results

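Polycomb repressive complex 2 (PRC2) is described here by 10 genes of the 36095 gene names on the array, of which 21983 are RefSeq symbols. The members were taken by gene name and every probe of each was kept, which gave 16 of 55681 probes. Ezh2 and Ezh1 encode the alternative catalytic subunits. Eed and Suz12 encode the other core subunits, Rbbp4 and Rbbp7 the histone-binding subunits, and Jarid2, Phf1, Mtf2 and Phf19 accessory subunits that help bring the complex to chromatin. The rule used gene names and no measured values, although the complex was picked with earlier results of these data known.

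The study followed gene expression from pluripotent cells to adult muscle on 23 one-colour Agilent arrays, beside DNA methylation data that were not analysed here. Each of 7 groups held 3 samples. In stage order these were embryonic stem cells, passage 0 myoblasts, proliferating myoblasts (primary cells at passages 8 to 10), myotubes on day 1, day 2 and day 4 of differentiation, and quadriceps muscle. Per the labels, the stem cell lines were cGR8 (129Sv), RD1 (129X1/SvJ) and E14tg2 (129/Ola), and the 2 arrays of E14tg2 were averaged to 1 sample. Myoblasts and myotubes were C57BL/6J. Myoblasts grew on collagen I with serum and bFGF, and myotubes formed on matrigel after a switch to medium with horse serum. Quadriceps replicate 1 was C57BL/6J and the other two were 129Sv/C57BL/6J. All samples with a sex label were male, and no animal age is given in the labels used here. Titles give proliferating myoblasts and myotubes the same 3 culture numbers, 21, 26 and 28, and passage 0 myoblasts have 26, 30 and 42. The labels do not say whether a number is an animal, so each p-value covers the spread among these samples alone, which may be technical. One skeletal muscle sample of a NOD/ShiLtj mouse had no replicate and is described at the end. No group carried a mutation or a drug named in the labels, and stem cells differ from myoblasts in strain as well as in lineage, so the effects of the 2 cannot be told apart.

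PRC2 methylates histone H3 at the lysine called K27, and genes that carry the trimethyl form of this mark are kept silent. In dividing cells Ezh2 is the usual catalytic subunit, while Ezh1 is the more abundant in many cells that have stopped dividing. In myoblasts Ezh2 is known to hold muscle genes such as Ckm silent before differentiation, and Jarid2 and Mtf2 are abundant in mouse embryonic stem cells. RNA was measured here, not protein, complexes or histone marks.

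The catalytic genes are where the results turn, so their promoters are shown from 100 bases before the annotated start to 30 bases after it, 5′ to 3′ on the strand of the gene, from RefSeq on build GRCm38.p6. Ezh2 lies on the minus strand at chr6:47595001-47595130 and Ezh1 on the minus strand at chr11:101226434-101226563. Capitals mark matches to CCAAT or to any of the E2F-type letters TTTCCCGC, TTTCGCGC, TTTGCCGC and TTTGGCGC, searched on both strands (ATTGG is CCAAT on the other strand).
Ezh2: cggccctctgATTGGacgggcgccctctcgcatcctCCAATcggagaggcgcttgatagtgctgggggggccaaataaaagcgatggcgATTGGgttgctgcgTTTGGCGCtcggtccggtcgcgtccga
Ezh1: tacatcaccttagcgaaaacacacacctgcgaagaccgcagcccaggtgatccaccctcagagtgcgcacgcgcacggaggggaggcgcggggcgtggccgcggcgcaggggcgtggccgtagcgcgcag
The Ezh2 window held 3 CCAAT matches and 1 E2F-type match, and the Ezh1 window held neither. Over full promoters of 300 bases, the E2F-type letters occurred in 2.26% of 32851 RefSeq promoters and in those of 3 members, Ezh2, Suz12 and Phf19. CCAAT occurred in 37.4% of the promoters and in those of 7 members, namely Eed, Ezh2, Jarid2, Mtf2, Rbbp4, Rbbp7 and Suz12. All 10 members had a promoter in the table, 12 in all. E-box letters, CANNTG, were in 72.3% of promoters and in 8 members, and the CAGCTG form in 16.3% and in 3 members. The Ezh1 window holds 2 E-box matches, 77 and 57 bases before the start, left in lower case. In Eed an E-box match overlaps a CCAAT match. A match is a description of the letters and not a measured binding site.

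Levels are log2 of the processed signal minus the 75th percentile of the array, so that 0 is the brightness of a probe at that percentile. A level of one probe says nothing against that of another, and levels are compared here only within a probe. A probe was called higher or lower at a Benjamini-Hochberg adjusted p under 0.05, from 1 limma fit of all probes, and a fold of at least 2. In these bulk samples, fewer cells of a type and less RNA per cell cannot be told apart. Of the 16 probes, 11 were well above background in all 21 samples, 4 in 17 to 19 of them, and the second Mtf2 probe (A_55_P2022624) in none. Ezh2, Eed, Suz12, Jarid2 and Phf19 have 1 probe each.

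The share of spots well above background ran from 39.1% to 60.1% over the arrays. Brightness at the 75th percentile was 87.7 intensity units for proliferating myoblast replicate 1 and 208 to 765 on the other arrays, so results for proliferating myoblasts are also given without that dim array where it matters. Markers fitted the labels. The summed signal of 6 pluripotency markers was 949 to 1190 times the array's 75th percentile in stem cells and at most 11.9 in the 18 later samples. For 6 myogenic markers the sum was 0.672 to 1.01 in stem cells, 366 to 1240 across myoblasts and myotubes, and 131 to 203 in quadriceps. The sum of 8 differentiated muscle markers was 2690 to 4640 in day 4 myotubes and 6770 to 8440 in quadriceps, against 131 to 508 in proliferating myoblasts. The 3 slides each held 1 sample of every group, with the E14tg2 repeat array in addition on the first. All 25 calls among member probes had the same sign on the 3 slides. Where the samples of the 2 groups do not overlap, as for nearly all of these calls, that sign is fixed beforehand. The agreement is therefore no separate check on the slides.

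Ezh2 fell during differentiation, and its group means descend in stage order from stem cells to quadriceps. Its probe (A_55_P2041397, chromosome 6 from 47480307 to 47480366 on mm9) had levels of 2.96, 3.50 and 3.38 in stem cells. Passage 0 myoblasts had 3.09, 2.60 and 2.72, and proliferating myoblasts 1.94, 2.57 and 3.08. These 3 groups overlapped one another. Myotubes had 1.75, 1.53 and 0.88 at day 1, then -0.01, 0.20 and 0.29 at day 2, and -0.09, -0.26 and 0.26 at day 4. Quadriceps stood lowest at -1.37, -0.95 and -0.95. No day 4 myotube sample reached the lowest proliferating myoblast, and no quadriceps sample reached the lowest day 4 myotube. Of the 6 pairs of neighbours in this order, 3 differed past the threshold. These were day 1 against proliferating myoblasts, day 2 against day 1 (lower by 1.23 on the log2 scale, adjusted p = 0.038) and quadriceps against day 4, while days 2 and 4 differed by 0.19 (adjusted p = 0.99).

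**Figure D1:**
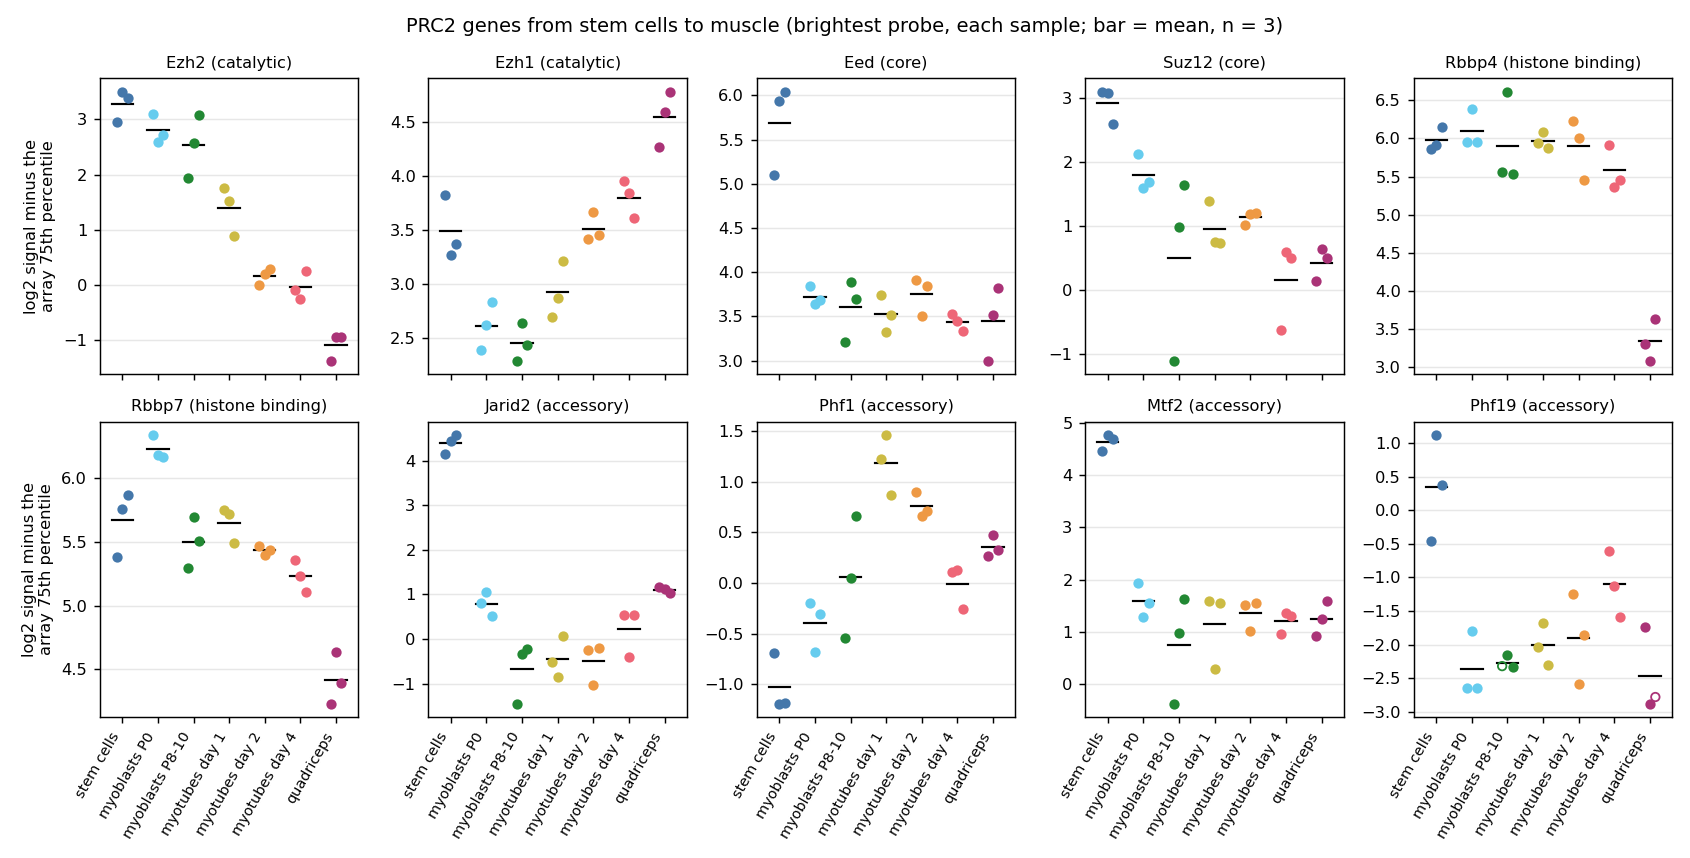
Log2 signal minus the array's 75th percentile for the brightest probe of each PRC2 gene, in stage order from stem cells to quadriceps. Each point is a sample, open where the spot was not well above background, and the bar is the mean of 3. Ezh2 means descend at every stage while Ezh1 is lowest in myoblasts and highest in quadriceps.

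In day 4 myotubes Ezh2 averaged -0.03 ± 0.27, against 2.53 ± 0.57 in proliferating myoblasts (SD, n = 3 each). That was a 5.88-fold fall (log2 change -2.55, SE 0.31, 95% confidence interval -3.21 to -1.90, adjusted p = 1.3e-05), lower by 2.20 to 3.16 on each slide. Without the dim array the change was -2.85. The call held under every alternative setting that was tried. Between proliferating myoblasts and stem cells the log2 change was -0.76 (interval -1.41 to -0.10, adjusted p = 0.064), which is not a call, though it became one without proliferating replicate 3 (-1.03, adjusted p = 0.017).

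The smaller steps of Ezh2 were less firm. At day 1 it was 2.21-fold lower than in proliferating myoblasts (adjusted p = 0.025), and normexp in place of the scanner's own correction (0.060), or no filter on dim probes (0.078), lost that call. It was also lost when either proliferating replicate 2 (0.053) or 3 (0.093), or either day 1 replicate 2 (0.050) or 3 (0.14), was left out. Day 4 was 2.66-fold below day 1 (adjusted p = 0.0078), and leaving out day 1 replicate 1 (0.053) or culture number 21 (0.060) lost the call. In quadriceps it was 2.09-fold lower than at day 4 (log2 change -1.06, adjusted p = 0.012). This last fold came below 2 with normexp (-0.82, adjusted p = 0.059) and with the authors' values (-0.94, 0.011). The same happened without quadriceps replicate 1 (-0.92, 0.056), without day 4 replicate 3 (-0.92, 0.047) and with the NOD/ShiLtj muscle added (-0.98, 0.01).

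Ezh2 moved together with the genes of cell division. The 18 proliferation markers summed to 698 to 893 in stem cells, 445 to 598 in passage 0 and 365 to 574 in proliferating myoblasts. Myotubes had 130 to 278 at day 1, 71.5 to 95.1 at day 2 and 69.6 to 99.0 at day 4, and quadriceps 17.9 to 19.8. Proliferating myoblast replicate 1 (369) was not lower than replicate 3 (365). Between day 4 myotubes and proliferating myoblasts 15 of 17 tested markers fell and 1 rose, with a median log2 change of -3.55 beside 0.03 over all genes. Ccnb1, a mitotic cyclin, fell 22.6-fold in this comparison (adjusted p = 2.3e-04) and Top2a, a topoisomerase of dividing cells, 21.3-fold (adjusted p = 4.2e-04). The marker that rose, named after its value was seen, was E2f2, an E2F transcription factor (6.09-fold, adjusted p = 9.2e-05). The part of dividing cells in the fall of Ezh2 was not tested.

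**Figure D2:**
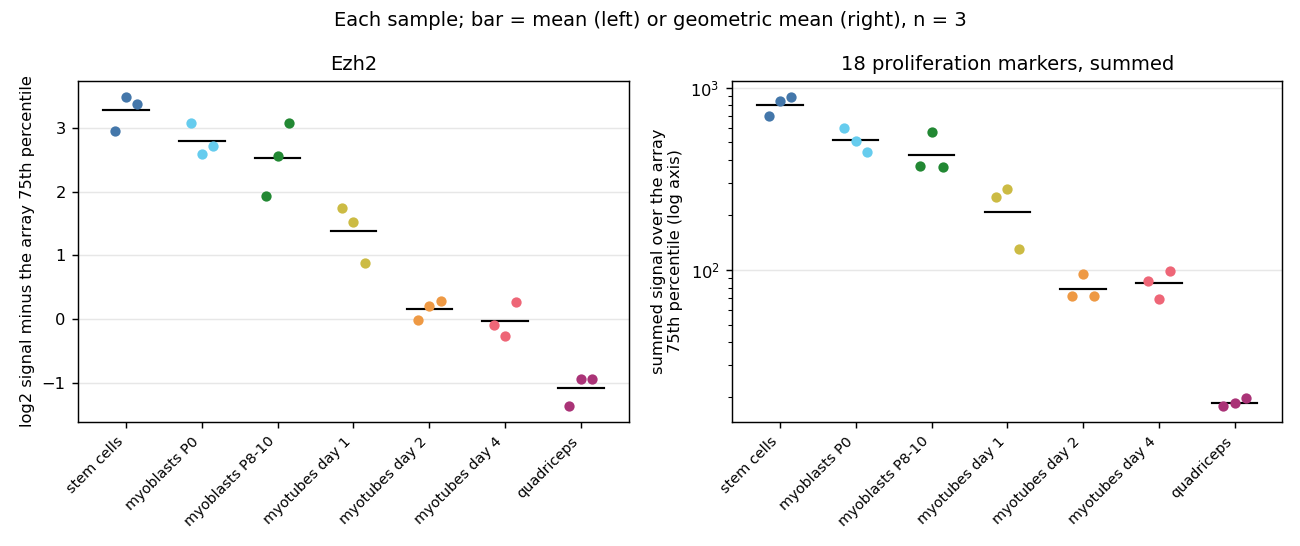
Left, the Ezh2 level (log2 signal minus the array's 75th percentile), and right, the summed signal of 18 proliferation markers over the array's 75th percentile on a log axis, by stage. Points are samples and bars are means (geometric on the right, n = 3); both are highest in stem cells and lowest in quadriceps, where the sum is 17.9 to 19.8.

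Across the 21 samples, the genes with profiles most like that of Ezh2 among 15903 compared were Spidr (r = 0.983), which takes part in DNA repair, the kinetochore gene Zwilch (0.981), the replication fork gene Donson (0.981), Dbf4 (0.979), the activator of the Cdc7 kinase, and 2700099C18Rik (0.979). These correlations describe samples that share stages and cultures and carry no test.

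Ezh1 took the opposite course from the myoblast stage on. The brightest of its 3 probes (A_55_P2082869, chromosome 11 from 101052430 to 101052489 on mm9) had levels of 3.82, 3.27 and 3.37 in stem cells. It had 2.39, 2.62 and 2.83 in passage 0 myoblasts and 2.29, 2.64 and 2.43 in proliferating ones. All 6 myoblast samples were below the 3 stem cell samples. Myotubes had 2.69, 2.87 and 3.21 at day 1, then 3.42, 3.67 and 3.45 at day 2, and 3.95, 3.84 and 3.61 at day 4. Quadriceps had 4.27, 4.59 and 4.78, above the other 18 samples of the 7 groups. In the order of group means quadriceps came first, then myotubes of days 4 and 2, stem cells, day 1 myotubes, and passage 0 and proliferating myoblasts. Of these neighbours only quadriceps and day 4 had an adjusted p under 0.05.

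In day 4 myotubes Ezh1 averaged 3.80 ± 0.17, against 2.45 ± 0.17 in proliferating myoblasts (SD, n = 3 each), a 2.54-fold rise (log2 change 1.35, SE 0.25, interval 0.82 to 1.87, adjusted p = 5e-04). The second probe (A_55_P2155942) rose 2.47-fold (adjusted p = 0.0022), and without the dim array the 2 changes were 1.27 and 1.25. A fit of only these 2 groups gave the same changes with adjusted p = 0.056 and 0.068. In quadriceps the brightest probe was 1.68-fold higher than at day 4 (adjusted p = 0.025), under the fold required. The dimmest probe (A_55_P2017086) was called 2.16-fold higher there. It entered that test through quadriceps alone, in which it is high, so no p-value is given. Quadriceps and day 4 samples overlapped, and 10 of 16 alternatives lost the call. Among them were leaving out day 4 replicate 1 or 2 or quadriceps replicate 2 or 3. The log2 change of this probe was 0.56 after normexp against 1.11. Against stem cells, the brightest Ezh1 probe was 2.04-fold lower in proliferating myoblasts (log2 change -1.03, adjusted p = 0.0027). Without the dim array this was -0.95, and without stem cell replicate 1 -0.86, both short of a 2-fold change. The second probe was 1.95-fold lower (adjusted p = 0.013) and the dimmest, which entered through the stem cells alone, 1.88-fold. Neither was called.

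The 3 Ezh1 probes gave like profiles over the 21 samples, with r = 0.97, 0.90 and 0.94 between pairs. The genes most like the brightest Ezh1 probe were the transporter gene Slc46a3 (0.952), Camk2b (0.946), a calcium-dependent kinase subunit, Clec16a (0.940), Atp1b2 (0.938), a sodium pump subunit, and the corepressor gene Hr (0.937), again as a description.

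The difference between the Ezh1 and Ezh2 probes on the same array does not depend on how arrays are scaled, and its change shows how unequally the 2 genes moved. The value itself has no meaning as a ratio of transcripts. It was 0.86, -0.24 and -0.02 in stem cells, -0.70, 0.02 and 0.10 in passage 0 myoblasts, and 0.35, 0.07 and -0.64 in proliferating myoblasts. The 3 groups overlapped. Myotubes gave 0.94, 1.34 and 2.33 at day 1, then 3.44, 3.47 and 3.16 at day 2, and 4.04, 4.10 and 3.35 at day 4. Quadriceps gave 5.64, 5.54 and 5.73. From proliferating myoblasts on, only days 2 and 4 overlapped.

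**Figure D3:**
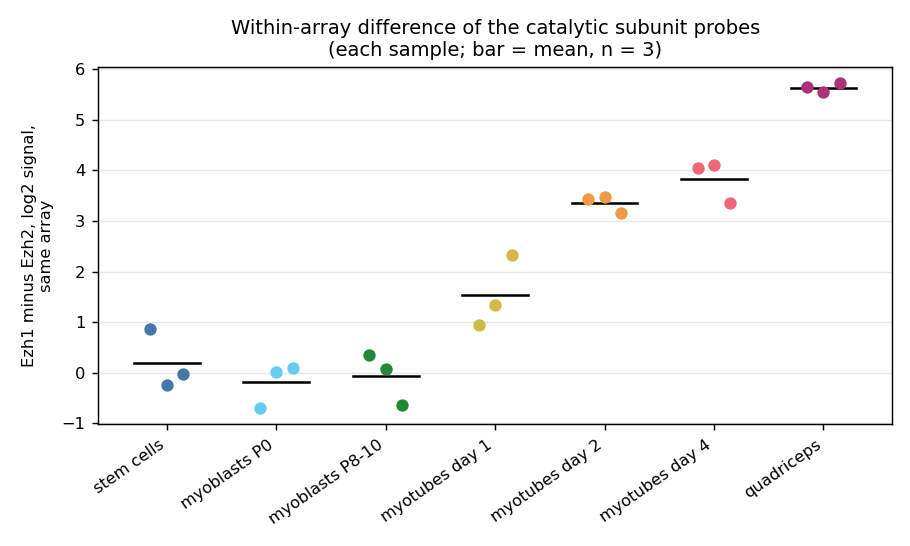
Log2 signal of the brightest Ezh1 probe minus that of the Ezh2 probe on the same array, by stage. Points are samples and bars are means of 3. Stem cells and myoblasts overlap around means of -0.07 to 0.20 in the compared groups, and quadriceps reach 5.54 to 5.73.

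In day 4 myotubes this difference averaged 3.83 ± 0.42, against -0.07 ± 0.51 in proliferating myoblasts, a shift of 3.90 (SD, n = 3 each). The quadriceps mean of 5.64 ± 0.09 was 1.81 above that of day 4. Both exact two-sided permutation p-values were 0.1, the smallest that 3 against 3 allows. Proliferating myoblasts were 0.28 lower than stem cells (mean difference -0.28, exact permutation p = 0.6). With Benjamini-Hochberg adjustment over 3 comparisons none could pass 0.05.

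Eed and Suz12, without which the catalytic subunits have little activity, were highest in stem cells. Eed binds the trimethyl mark. Its levels lay between 3.00 and 3.91 in the 18 later samples, against 5.10, 5.94 and 6.04 in stem cells. In proliferating myoblasts it was 4.27-fold lower than in stem cells (log2 change -2.09, SE 0.29, adjusted p = 1.6e-05), and in passage 0 myoblasts 3.91-fold lower (adjusted p = 2.6e-05). From passage 0 myoblasts to quadriceps no step moved Eed past the threshold. Its day 4 level was 3.43 ± 0.10, against 3.60 ± 0.35 in proliferating myoblasts (interval of the difference -0.78 to 0.45), so changes of up to about that size were not excluded.

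Suz12 had levels of 3.1, 3.09 and 2.59 in stem cells, 2.13, 1.6 and 1.69 in passage 0 myoblasts, and -1.10, 0.99 and 1.64 in proliferating myoblasts. The -1.10 is the dim array. Myotubes had 1.4, 0.75 and 0.74 at day 1, 1.02, 1.19 and 1.21 at day 2 and -0.62, 0.60 and 0.51 at day 4, and quadriceps 0.14, 0.65 and 0.50. Proliferating myoblasts were 5.33-fold below stem cells (log2 change -2.41, adjusted p = 8.6e-04), with a change of -1.61 (adjusted p = 0.0016) without the dim array. Passage 0 myoblasts lay below stem cells without overlap but were not called (log2 change -1.12, interval -2.18 to -0.06, adjusted p = 0.086), though normexp (0.034) and a fit of only the 2 groups (0.0081) called them. Between day 4 myotubes and proliferating myoblasts the change was -0.34 (interval -1.4 to 0.72, adjusted p = 0.68). Leaving out the dim array turned that into a call of lower (-1.15, adjusted p = 0.025).

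Rbbp4 and Rbbp7, histone chaperones that also serve other chromatin complexes, were not called in any comparison of cultured cells with their brightest probes and were lowest in muscle. The brightest Rbbp4 probe (A_51_P307325) read 3.30, 3.09 and 3.63 in quadriceps, against 5.37 to 6.61 in the 18 cultured samples. The quadriceps mean of 3.34 ± 0.28, against 5.58 ± 0.29 in day 4 myotubes, was a 4.72-fold fall (log2 change -2.24, SE 0.31, adjusted p = 1.9e-05). It held under every alternative that was tried. Rbbp7 (A_55_P2123822) averaged 4.42 ± 0.20 in quadriceps, against 5.23 ± 0.13 in day 4 myotubes. That was 1.76-fold lower without overlap (adjusted p = 0.0079), under the fold required, and its second probe gave 1.86-fold (adjusted p = 0.021).

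The 2 Rbbp4 probes did not agree in culture. The dimmer one (A_52_P424767), whose target begins at base 4068 of the transcript against base 1757 for the brighter one, read -4.41, -3.81 and -3.29 in day 4 myotubes, the first not above background, against -1.86, -1.54 and -2.25 at day 1. It was 3.87-fold lower at day 4, while the brighter probe changed by -0.39 (adjusted p = 0.53). The dim probe entered that test through day 1 alone, in which it is high, so no p-value is given for it. With normexp the fall of the dim probe shrank to -0.62, and with the authors' values to -0.96. Its 2.19-fold higher level in passage 0 myoblasts than in stem cells (adjusted p = 0.038) was lost under 8 of 15 alternatives, among them leaving out stem cell replicate 2 or 3 or passage 0 replicate 1 or 2. Over all samples the 2 probes correlated at r = 0.46, while the 2 Rbbp7 probes reached 0.93. Which Rbbp4 transcript each reads was not tested.

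Jarid2 and Mtf2 fell farthest of the members between stem cells and either myoblast group. Jarid2 stood at 4.14, 4.44 and 4.57 in stem cells, 0.80, 1.05 and 0.51 in passage 0 myoblasts, and -1.45, -0.34 and -0.22 in proliferating myoblasts. Myotubes had -0.51, -0.86 and 0.06 at day 1, -0.25, -1.02 and -0.19 at day 2 and 0.53, -0.40 and 0.53 at day 4, and quadriceps 1.17, 1.11 and 1.04. The highest of the 18 other samples was 1.17, in quadriceps. In proliferating myoblasts it was 33.3-fold lower than in stem cells (log2 change -5.06, SE 0.36, adjusted p = 5.6e-09), and -4.67 without the dim array. In passage 0 myoblasts it was 12.1-fold lower (adjusted p = 3.2e-07). Proliferating and passage 0 myoblasts did not overlap, and their difference of -1.46 missed the threshold (interval -2.23 to -0.69, adjusted p = 0.057). It passed with the slide as a block (0.032), the authors' values (0.033), normexp (0.046) and quantile normalization, and without the dim array it was -1.07 (0.16). Leaving out proliferating replicate 2 (0.046) or 3 (0.030) also passed it. Day 4 myotubes were 0.89 above proliferating myoblasts (interval 0.13 to 1.66, adjusted p = 0.077), with overlap, and without proliferating replicate 3 (1.12, 0.047) or day 4 replicate 2 (1.2, 0.033) this was a call. Quadriceps samples were all above those of day 4 myotubes, by 0.89 on average (interval 0.12 to 1.65, adjusted p = 0.067), and without culture number 21 this was a call (1.04, 0.038).

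Mtf2, a Polycomb-like protein that binds CpG-rich DNA, lay between -0.37 and 1.93 in the 18 later samples with its measured probe (A_51_P261001), against 4.46, 4.76 and 4.68 in stem cells. The lowest value was that of the dim array. Proliferating myoblasts were 14.8-fold below stem cells (log2 change -3.89, adjusted p = 1.1e-06) and -3.33 without that array. Passage 0 myoblasts were 8.21-fold lower (adjusted p = 1.5e-05). No later step changed Mtf2 past the threshold.

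Phf19, also Polycomb-like, read -2.64, -1.80 and -2.65 in passage 0 myoblasts, against -0.45, 1.12 and 0.37 in stem cells. It was thus 6.52-fold lower (adjusted p = 6.3e-05). In proliferating myoblasts it was 6.12-fold lower than in stem cells. It entered that test through the stem cells alone, in which it is high, so no p-value is given. At day 4 its levels of -0.60, -1.12 and -1.59 were above the proliferating myoblast levels of -2.32, -2.15 and -2.34, the first of them not above background. The difference of 1.16 (interval 0.24 to 2.08) was not a call, but was one with quantile normalization or without day 4 replicate 3. Phf19 entered that test through day 4 alone, so no p-value is given. Quadriceps had -1.74, -2.88 and -2.78, the last not above background, which was 2.57-fold below day 4. Here too Phf19 entered the test through day 4 alone, in which it is high, so no p-value is given. Leaving out day 4 replicate 1 or quadriceps replicate 2 or 3 lost the call, as did normexp.

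Phf1, the remaining Polycomb-like member, was higher rather than lower in proliferating myoblasts than in stem cells, and highest in early myotubes. Its brightest probe (A_51_P220260) had -0.69, -1.19 and -1.18 in stem cells, -0.20, -0.68 and -0.30 in passage 0 myoblasts, and -0.54, 0.05 and 0.66 in proliferating myoblasts. Myotubes had 1.22, 1.46 and 0.87 at day 1, 0.90, 0.66 and 0.71 at day 2 and 0.11, 0.13 and -0.26 at day 4, and quadriceps 0.27, 0.47 and 0.33. Against stem cells, proliferating myoblasts were 2.11-fold higher (adjusted p = 0.0066), with a log2 change of 0.78 in place of 1.08 when proliferating replicate 3 was left out, and 0.99 or 1.00 without stem cell replicate 2 or 3. Day 1 myotubes were 2.18-fold above proliferating myoblasts (adjusted p = 0.019), a call lost without the dim array (0.83, adjusted p = 0.069) and without day 1 replicate 1 (0.057) or 2 (0.084). Day 4 was 2.28-fold below day 1 (adjusted p = 0.015), a call lost without day 1 replicate 1 (0.059) or 2 (0.077). The dimmer probe (A_55_P1954998) read -4.17, -3.16 and -3.55 in passage 0 myoblasts and was not above background in any stem cell sample. It was at least 2.36-fold higher in passage 0 myoblasts, where the bound takes the brighter of the lowest measured signal and the probe's own. It entered the test only through the myoblasts, in which it is high, so no p-value is given. Its log2 change was 1.57, but 0.42 with normexp and 0.51 with the authors' values. At day 1 against proliferating myoblasts this probe changed by 0.64, not a call, though quantile normalization made it one (1.05). Between days 4 and 1 it changed by -0.35 (interval -1.06 to 0.37, adjusted p = 0.63). The calls of Phf1 at those 2 steps thus rest on the brightest probe alone.

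Counted over member probes, the comparisons of myoblasts with stem cells had the most calls. In passage 0 myoblasts against stem cells 2 of 15 tested probes were higher and 4 lower, where 17.8% and 21% of all probes tested were called. One of the 2 higher probes is the dim Phf1 probe, and with the filter on both groups 1 of 14 was higher and 4 lower. The median change was -0.80 for the members and -0.27 for all probes. In proliferating myoblasts against stem cells 1 of 14 was higher and 6 lower, against 15.3% and 21% of all, with medians of -0.94 and -0.06. Without the dim array the counts were 2 and 5, and with the filter on both groups 1 and 5 of 11. These 2 comparisons share the stem cell samples. The count called lower was thus near the share of all probes in passage 0 myoblasts and above it in proliferating myoblasts. Counts with the other filter or without the dim array have no such share beside them and are not compared with one. The members were too few for more than a description.

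The culture steps called fewer members. None of 15 member probes passed in proliferating against passage 0 myoblasts with limma, where 0.531% of all probes were higher and 0.721% lower. At an unadjusted p under 0.05 there were 5, namely Jarid2, Suz12, both Rbbp7 probes and the dim Phf1 probe. The share of all probes at that unadjusted threshold is not given here, so the 5 cannot be set against the shares above. In day 1 myotubes against proliferating myoblasts 1 of 14 was higher (Phf1) and 1 lower (Ezh2), against 6.18% and 3.55%. In day 4 myotubes against proliferating myoblasts 2 of 13 were higher (both Ezh1) and 1 lower (Ezh2), against 14.9% and 10.6%, with medians of -0.06 and 0.03, and without the dim array 3 were lower. Between days 4 and 1 none of 14 was higher and 3 were lower (Ezh2, Phf1 and the dim Rbbp4 probe), against 4.25% and 4.51%. In quadriceps against day 4 myotubes 1 of 14 was higher and 3 lower (Ezh2, Rbbp4 and Phf19), against 15.8% and 16.4% of all probes. Over the 7 comparisons, 5 of the 25 calls came from a probe above background throughout only 1 of the 2 groups, namely the dim Phf1 probe in passage 0 myoblasts, Phf19 in proliferating myoblasts against stem cells and in quadriceps, the dim Rbbp4 probe at day 4 and the dimmest Ezh1 probe in quadriceps. None of these small counts is read as a result about the members.

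**Figure D4:**
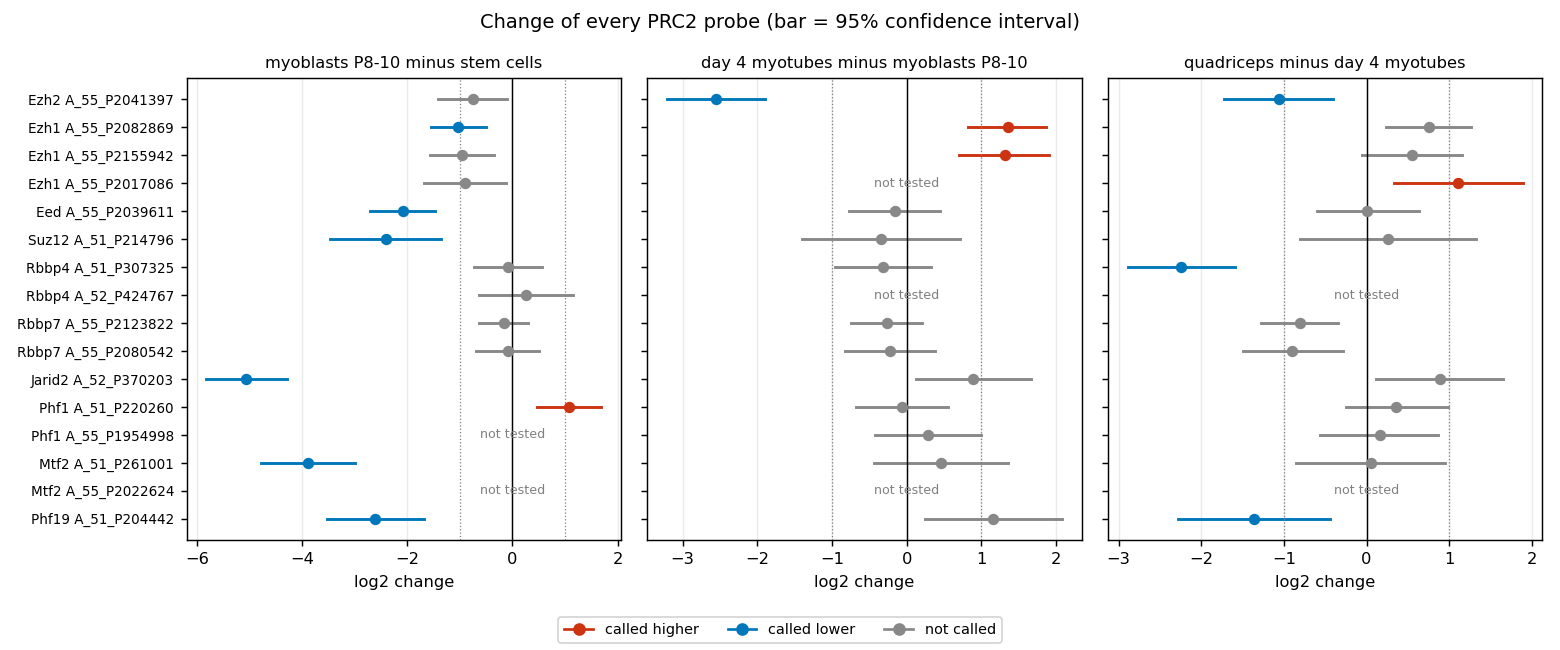
Log2 change of all 16 PRC2 probes in proliferating myoblasts minus stem cells, day 4 myotubes minus proliferating myoblasts, and quadriceps minus day 4 myotubes. Points are limma estimates, bars 95% confidence intervals, dotted lines 2-fold changes, and probes dim in both groups were not tested. Jarid2 and Mtf2 fall farthest in the first panel (-5.06 and -3.89), Ezh2 in the second (-2.55) and Rbbp4 in the third (-2.24).

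Quadriceps is whole tissue, and markers of other cell types rose with it. Compared with day 4 myotubes, 5 of 6 endothelial, 5 of 6 fibroblast, 4 of 4 tested adipocyte, 4 of 5 Schwann cell, 3 of 4 smooth muscle, 3 of 4 red blood cell and 2 of 4 tested leukocyte markers were called higher. Over all genes 15.1% were called higher there. Each quadriceps sample had 4 adipocyte, 4 red blood cell and 4 smooth muscle markers above background. Day 4 samples had at most 1, 2 and 1. Most of those markers thus entered the test through quadriceps alone, in which they are high, and their counts are a description only. The fibroblast sum was 246 to 464 in quadriceps, against 9.53 to 15.3 in day 4 myotubes. In the same order, red blood cell sums were 173 to 215 and 0.205 to 0.379. Adipocyte sums were 76.8 to 153 and 0.120 to 0.194, endothelial 24.3 to 34.9 and 5.96 to 17.6, leukocyte 11.4 to 15.8 and 1.85 to 5.87, and Schwann cell 6.08 to 13.1 and 1.58 to 2.24. Smooth muscle sums overlapped at 48.5 to 72.5 and 57.0 to 94.6. The adipocyte marker Lep was above background in no quadriceps sample. The part of these cells in the quadriceps levels of Ezh1, Ezh2, Rbbp4 and Phf19 was not tested. Markers of other cells differed between passage 0 myoblasts and stem cells too. There 4 of 6 fibroblast, 3 of 6 leukocyte, 2 of 3 tested smooth muscle, 1 of 4 tested Schwann cell and the 1 tested adipocyte marker were higher, while 3 of 5 tested endothelial, 1 of 2 tested red blood cell and 1 smooth muscle marker were lower. Over all genes 17.8% were higher and 20.1% lower. No adipocyte marker and at most 4 fibroblast and 4 leukocyte markers were above background in a stem cell sample. Some markers thus entered through passage 0 myoblasts alone. Fibroblast sums were 29.5 to 70.1 in passage 0 myoblasts, against 3.12 to 13.1 in stem cells. Leukocyte sums were 4.93 to 31.2 in passage 0 myoblasts, with all 6 markers above background in each sample, against 2.43 to 2.95 in stem cells. The part of these cells in the member levels was not tested either.

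Among accessory subunits outside the 10 members, Epop, which is found with PRC2 in stem cells, followed Jarid2 and Mtf2 at the first step. It averaged 1.31 ± 0.36 in proliferating myoblasts, against 6.58 ± 0.73 in stem cells (38.6-fold lower, adjusted p = 2.7e-08), and fell a further 6.57-fold to -1.41 ± 0.21 at day 4 (adjusted p = 1.3e-04). Over all genes 16% were higher and 20% lower in that first comparison. Ezhip, an inhibitor of the complex, was above background in no passage 0 myoblast sample and was at least 32.7-fold lower there than in stem cells, where it read -0.18, 0.29 and 0.35. In proliferating myoblasts it read -2.39, -5.26 and -3.89, with only the last above background. It entered both tests through the stem cells alone, so no p-value is given. Aebp2 did not pass in any of the 7 comparisons with all samples. Without the dim array, where it read 0, Aebp2 was called lower in day 1 myotubes than in proliferating myoblasts. It read 0.87, 0.44 and 0.75 at day 1, against 1.88 and 1.79 in the remaining proliferating samples. Lcor passed in 1 of the 7 comparisons, being 4.66-fold higher in passage 0 myoblasts than in stem cells (adjusted p = 0.025). Without the dim array Lcor also passed in proliferating myoblasts against stem cells (2.93-fold higher, adjusted p = 0.018).

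Of the 2 demethylases that remove the mark, Kdm6b averaged 2.51 ± 0.18 in day 4 myotubes, against 1.18 ± 0.70 in proliferating myoblasts, 2.52-fold higher (adjusted p = 0.0042). Without the dim array that was 1.91-fold (adjusted p = 0.019), under the fold required. Kdm6a read -1.96, -0.25 and -1.30 in proliferating myoblasts, against 1.17, 0.68 and 0.33 in stem cells. The -1.96 is the dim array and was not above background. The groups did not overlap, and Kdm6a was 3.72-fold lower in proliferating myoblasts. It entered that test through the stem cells alone, so no p-value is given. Without the dim array it was 2.83-fold lower (adjusted p = 0.018). Its change between day 4 and proliferating myoblasts was 0.12 (interval -0.86 to 1.10).

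PRC1, the complex that recognises the PRC2 mark through chromobox proteins, had genes called in both directions at the first step. In passage 0 myoblasts against stem cells 1 of 8 ring finger and core genes rose and 2 fell. Of 8 polyhomeotic and partner genes 3 rose and 2 fell, and of 3 tested chromobox genes 1 rose and none fell. Over all genes 17.8% were higher and 20.1% lower, and these small counts are not read as a result about PRC1. Bmi1, a core ring finger subunit, was 15.8-fold higher (adjusted p = 1.5e-05) and Pcgf2, its close relative, 3.89-fold lower (adjusted p = 2.3e-04). Of the polyhomeotic genes, Phc1 was 12-fold lower (adjusted p = 4.1e-09) and Phc2 7.57-fold higher (adjusted p = 1.2e-07). In day 4 myotubes against proliferating myoblasts the ring finger list had 1 gene higher of 8, the chromobox list 1 lower of 3 and the polyhomeotic list 2 lower of 8, with Cbx2 2.82-fold lower (adjusted p = 0.0017) and Phc2 2.75-fold lower (adjusted p = 5.7e-04). Without the dim array the ring finger list had none higher and the polyhomeotic list 3 lower, while Cbx2 (2.90-fold) and Phc2 (2.51-fold) were still called.

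Of 7 muscle and cell cycle genes that have been described as PRC2 targets, 4 rose and 1 fell between day 4 and proliferating myoblasts, against 15% and 10.6% of all genes, with a median change of 1.76 beside 0.03. Myh4, a fast myosin heavy chain, averaged 7.46 ± 0.68 at day 4, against -1.91 ± 1.10 in proliferating myoblasts (660-fold, adjusted p = 4.1e-07). Ckm, muscle creatine kinase, was 95.3-fold higher (adjusted p = 3.2e-05). Without the dim array these folds were 1030 and 159. Pax7, the satellite cell factor and the gene of this list that fell, was 4.62-fold lower (adjusted p = 7.1e-04). In quadriceps against day 4 myotubes 2 of the 7 were higher and 4 lower, against 15.1% and 16.7% of all genes. There the cell cycle inhibitor gene Cdkn2a averaged -3.14 ± 0.59, against 3.85 ± 0.97 in day 4 myotubes (127-fold lower). In quadriceps replicate 3 only 6 of the 7 genes were above background, and a member probe at -2.78, that of Phf19, was not. The Cdkn2a level is thus near background in quadriceps, its fold is uncertain, and no p-value is given. Myog, a myogenic regulator of early differentiation, was 117-fold lower there (adjusted p = 3e-08). These genes were chosen from general knowledge with earlier results of these data known. Myh4, Ckm, Myog and Pax7 are also among the differentiated muscle or myogenic markers used above. Their changes with differentiation are thus no separate information about PRC2 targets.

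Set gene against gene over the 21 samples, the members fell into patterns that can be described without a test, since all samples share arrays and stages. Eed and Mtf2 had r = 0.94, Jarid2 and Mtf2 0.92, and Rbbp4 and Rbbp7 0.85. Ezh2 was closest to Rbbp7 (0.80), and Ezh1 ran against Ezh2 (-0.75), Rbbp7 (-0.79) and Rbbp4 (-0.71).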

How the data were processed

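RNA of 23 arrays was measured on an Agilent mouse 60-mer array. Spot intensities were deposited as scanner output from Feature Extraction 10.7.3.1, background-subtracted and processed to the green processed signal, per the file headers. The authors also deposited a table of log2 values for the same arrays, with a median of 6.72 in each column and a correlation of 0.954 to 0.991 with the log2 processed signal. How that table was normalized is not given in the sources used here. It served only as an alternative.

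From the 59305 non-control spots, spots of a probe were averaged to 55681 probes and the 75th percentile of each array was subtracted on the log2 scale. A probe well above background throughout either group of a comparison was tested there with limma 3.58.1 (R 4.3.3), in 1 fit of 21 samples and 7 groups without covariates, with Benjamini-Hochberg adjustment. The number of arrays limits the precision. The Ezh1 minus Ezh2 difference was tested by exact permutation. The code was tested on simulated data.

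Members and gene lists were chosen with earlier results of these data known. Named genes were all members, the 2 called genes of largest change per list and comparison, any gene of a list of 5 or fewer, and the 5 profiles most like Ezh1 and Ezh2. The alternatives were quantile normalization, normexp background correction (offset 50), values from the authors' table, other filters, 1 probe per gene, slide or replicate number as a block, no repeat array, only the 2 groups compared, the NOD/ShiLtj muscle added, and each replicate left out. Leaving out culture number 21, and the dimmest array for the listed genes, was added after seeing the data. Culture numbers are shared by proliferating myoblasts and myotubes, and same-numbered deviations correlated above 0.1 in all 3 pairs for days 1 and 4 and for day 2 with proliferating myoblasts, but not for the other combinations of these groups. Stem cells and quadriceps share no culture number, and paired by replicate number they also passed 0.1 in all 3 pairs (0.108 to 0.251). Passing 0.1 is therefore no sign of a shared culture. One result among the listed genes is not reported here.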

Additional observations from a re-analysis of the deposited data

Results flagged for a closer look

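The NOD/ShiLtj skeletal muscle sample was outside the comparisons, has no replicate and carried 14 of the 16 PRC2 probes well above background. Of the 16 probes, 9 lay within the range of the 3 quadriceps samples, 3 above it and 4 below it. Ezh2 read -0.77 in that sample, above the highest quadriceps level of -0.95. Jarid2 read 1.46, against 1.17 in the highest quadriceps sample. The brightest Phf1 probe read 0.48, against 0.47. Of the probes below the range, the brightest Rbbp4 probe stood at 2.50, against 3.09 in the lowest quadriceps sample, and the second Phf1 probe at -2.62, against -2.32. The dim probes of Rbbp4 (-4.47, against -3.63) and Mtf2 (-6.14, against -6.11) were not above background in the NOD/ShiLtj sample. With 1 sample no test was made, and strain and muscle cannot be told apart.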

How the results depend on the processing

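No alternative changed the sign of a called member value, and 11 of 25 calls held under every alternative that tested them: Eed, Jarid2, Mtf2 and Phf19 in both myoblast groups against stem cells, Suz12 in proliferating myoblasts against stem cells, Ezh2 in day 4 myotubes against proliferating myoblasts, and Rbbp4 in quadriceps against day 4 myotubes. Phf19 in proliferating myoblasts had entered its test through the stem cells alone, and the filter on both groups did not test it. The cause of the other changes was not tested. Dim probes and the dim array limit what can be read from low signals.

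Moves of more than 1.5 times in the counts of member probes, or to or from 0, were as follows. In passage 0 myoblasts against stem cells, 2 higher became 0 with normexp, the authors' values and 1 probe per gene, and 1 with quantile normalization, no filter or the filter on both groups. In proliferating myoblasts against stem cells, 1 higher became 0 with the authors' values or only the 2 groups, and 2 with no filter or without culture number 21. In proliferating against passage 0 myoblasts, 0 lower became 1 with normexp, quantile normalization, the authors' values and the slide block. In day 1 myotubes against proliferating myoblasts, 1 higher became 0 with normexp, the authors' values, no filter, only the 2 groups or without culture number 21, and 2 with quantile normalization, while 1 lower became 0 with normexp, no filter or only the 2 groups. In day 4 myotubes against proliferating myoblasts, 1 lower became 2 with no filter or without culture number 21, and 2 higher became 0 with only the 2 groups and 1 with 1 probe per gene. Between days 4 and 1, 3 lower became 1 with only the 2 groups or without culture number 21. In quadriceps against day 4 myotubes, 1 higher became 0 with normexp, quantile normalization, the authors' values, no filter, the filter on both groups, 1 probe per gene and only the 2 groups, and 3 lower became 1 with normexp and the authors' values. Smaller moves also occurred. In passage 0 myoblasts against stem cells 4 lower became 5 with normexp and only the 2 groups, through Suz12. In proliferating myoblasts against stem cells 6 lower became 5 with the filter on both groups, only the 2 groups or without culture number 21. Day 4 myotubes against proliferating myoblasts had 3 higher in place of 2 with quantile normalization, through Phf19. Between days 4 and 1, 3 lower became 2 with normexp, the authors' values, no filter, the filter on both groups or 1 probe per gene. In quadriceps against day 4 myotubes 3 lower became 2 with no filter, the filter on both groups, the NOD/ShiLtj muscle or without culture number 21.

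With each replicate left out, the higher and lower counts ranged from 1 to 2 and 4 to 4 in passage 0 myoblasts against stem cells, 0 to 2 and 5 to 8 in proliferating myoblasts against stem cells, 0 to 1 and 0 to 2 in proliferating against passage 0 myoblasts, 0 to 1 and 0 to 1 in day 1 myotubes against proliferating myoblasts, 2 to 3 and 1 to 3 in day 4 myotubes against proliferating myoblasts, 0 to 2 and 1 to 3 between days 4 and 1, and 0 to 1 and 2 to 4 in quadriceps against day 4 myotubes. The Ezh1 minus Ezh2 change ranged from -0.50 to 0.05, 3.62 to 4.14 and 1.57 to 1.95 for proliferating myoblasts against stem cells, day 4 against proliferating myoblasts, and quadriceps against day 4.

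The replicate block left every count of member calls as it was. With samples paired by replicate number, the Ezh1 minus Ezh2 changes of -0.28, 3.90 and 1.81 had exact permutation p-values of 0.5, 0.25 and 0.25, where 0.25 is the smallest possible. Of these comparisons, only day 4 against proliferating myoblasts pairs samples of the same culture number. In the others the replicate number is an arbitrary label, so their pairs have no basis in the labels. The block also joins passage 0 and proliferating myoblasts of different culture numbers.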
